A study of Oryza sativa with 46 samples.

Results

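The loci described here are those whose array probes gave a clear signal in Nipponbare, a japonica variety described as susceptible to salt, and no clear signal in Pokkali, an indica landrace described as tolerant. A probe was called bright on an array where the scanner software flagged its spot as well above background, and dark where it did not. Members were selected on these flags: bright on all 4 arrays of Nipponbare replicates 1 and 2 (0 and 120 mM NaCl) and dark on all 6 Pokkali arrays. Of 41889 probes with a rice locus name, 158 probes of 137 loci met this rule, out of 31476 probes that were bright on the 4 Nipponbare arrays. The opposite pattern, dark on the 4 Nipponbare arrays and bright on the 6 Pokkali arrays, held for 261 probes of 240 loci. Since the Nipponbare and Pokkali values chose the members, their difference is given below as a description, without a test.

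Total RNA of whole rice seedlings was measured on one-color oligonucleotide arrays, with 1 seedling per array. Seedlings of 8 genotypes were 16 days old and had stood for 48 h in nutrient solution with 120 mM NaCl or in the same solution with 0 mM. The genotypes were the indica landrace Pokkali, the indica varieties PSBRc50, IR58 and BRRIdhan 29, the japonica genotypes Banikat and Nipponbare, and the wild species Oryza latifolia and Oryza rufipogon, each represented by 1 germplasm accession. The 46 arrays used here fell into 16 groups, 14 of 3 arrays and 2 of 2 arrays (IR58 at 0 mM and BRRIdhan 29 at 120 mM), and 34 of them belonged to the 6 genotypes that the rule did not use. All levels are quantile-normalized log2 intensities.

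Array probes are short oligonucleotides designed on one reference genome, that of Nipponbare. A probe can therefore stay dark in another genotype when the gene is not transcribed there, when the gene is missing from that genome, or when the transcript differs in sequence under the probe, and the arrays alone cannot tell these apart. Indica and japonica are the main subspecies of cultivated rice, and Oryza rufipogon is the wild ancestor that crosses with both, whereas Oryza latifolia is a more distant tetraploid species. Gene families of plant immunity, such as the nucleotide-binding leucine-rich repeat resistance proteins, are known to vary in presence and sequence between rice lines.

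Before any comparison, 8 arrays were found to go against their genotype label. Each array, centered per probe, was set against the averages of the genotypes computed without it, as a correlation across probes, and for these 8 the highest value (0.417 to 0.844) was with another genotype, against -0.0909 to 0.0977 with their own. They were PSBRc50 120 mM replicate 3 (closest to Banikat), IR58 0 mM replicate 2 (BRRIdhan 29), BRRIdhan 29 0 mM replicate 2 (IR58), Banikat replicate 3 at both treatments (Nipponbare), Nipponbare replicate 3 at 0 mM (IR58) and at 120 mM (Banikat), and Oryza latifolia 120 mM replicate 2 (PSBRc50). The other 38 arrays were closest to their label. Across the 46 arrays 20862 to 36660 probes were bright, with the lowest number on an Oryza latifolia array. Results are given with all arrays as labelled and again without these 8. Nipponbare and Pokkali arrays shared no slide and no scan day, so these cannot be told apart from the genotypes. Pokkali shared 3 slides with PSBRc50, on whose arrays 94 to 99 of the 158 probes were bright (137 on the array that resembles Banikat). Nipponbare shared 3 slides and their scan days with Banikat, so that the slides of the rule also held Banikat arrays. On the Banikat arrays 126 to 149 of the 158 probes were bright. The part of the slide in the dark state in Pokkali and in the bright state in Banikat was not tested. Markers of both organs of a whole seedling, the photosynthesis genes Os12g0274700 and Os01g0600900 and the root genes Os02g0662000 and Os02g0658100, were bright on all 46 arrays. The leaf markers lay within 16.3 to 18.5, whereas the root markers ranged from 9.68 to 15.9 and from 6.00 to 15.2, and the part of this spread in the results was not tested.

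A level in a whole seedling averages over its cells, so that fewer cells of a type and less RNA per cell cannot be told apart. In Nipponbare the 158 probes had mean log2 levels between 3.64 and 13.0 with a median of 6.52, below the median of 9.19 of the other probes that were bright on the same 4 arrays. In Pokkali their means lay between 1.18 and 2.68. Because a dark probe gives only a bound, fold differences were computed against the lowest signal of any bright probe on each Pokkali array wherever that was higher than the probe's own signal. By this bound the level in Nipponbare was at least 2-fold higher for 155 probes, at least 10-fold higher for 80 and at least 100-fold higher for 24, with a median of at least 10.9-fold. The 4 Nipponbare arrays differed among themselves by a median SD of 0.48.

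The brightest member was Os11g0550800, a conserved hypothetical protein. Its first probe read 12.4 and 12.7 at 0 mM and 12.8 and 14.1 at 120 mM in Nipponbare, against 1.22 to 2.36 on the 6 Pokkali arrays, which is at least 961-fold higher, and its second probe followed it (at least 952-fold). The next was Os12g0563600, a DUF538 family protein of unknown function, whose 4 probes all met the rule with Nipponbare means of 10.7 to 11.9. Os07g0442900, which carries no annotation here, averaged 11.9 ± 1.16 (SD, n = 4) in Nipponbare and 1.79 ± 0.41 (SD, n = 6) in Pokkali. Os11g0615700 encodes an alpha-5 subunit of the 20S proteasome, the protease core that degrades ubiquitin-tagged proteins, and its member probe averaged 11.6 ± 0.39 in Nipponbare and 1.30 ± 0.05 in Pokkali. The others of the 8 brightest were the hypothetical protein Os01g0541000 (11.2 ± 0.21), Os10g0132300 (11.2 ± 0.69), the aspartic peptidase Os06g0119600 (11.1 ± 1.22) and Os06g0164000 (10.6 ± 0.40), each at a mean of 1.24 to 1.97 in Pokkali. On none of these 8 loci did the 4 Nipponbare arrays of the rule overlap with Pokkali, as the rule made likely. The Nipponbare 0 mM replicate 3 array, which resembles IR58, was at 1.21 for Os11g0550800 and 1.29 for Os01g0541000, near the Pokkali level.

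Members at the edge of the rule were dim in Nipponbare or close to the background limit in Pokkali. The highest Pokkali means among members were 2.68 for Os01g0669300, 2.65 for Os09g0339100 and 2.54 for Os09g0328900, with Nipponbare means of 5.72, 3.88 and 5.12. Just outside, 126 probes were bright on the 4 Nipponbare arrays and on exactly 1 Pokkali array. The lowest Pokkali means among these were 1.58 for Os02g0207900, 1.60 for Os09g0120100 and 1.61 for Os04g0362300, all lower than those of the members just inside. Of the 126 probes, 81 were bright only on Pokkali 120 mM replicate 3, the Pokkali array with the lowest limit for a bright probe (2.16, against 2.69 to 4.37 on the other 5).

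The Nipponbare replicate 3 arrays, which the rule left out, had 88 of the 158 probes bright at 0 mM, where the array resembles IR58, and 146 at 120 mM, where it resembles Banikat.

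**Figure D1:**
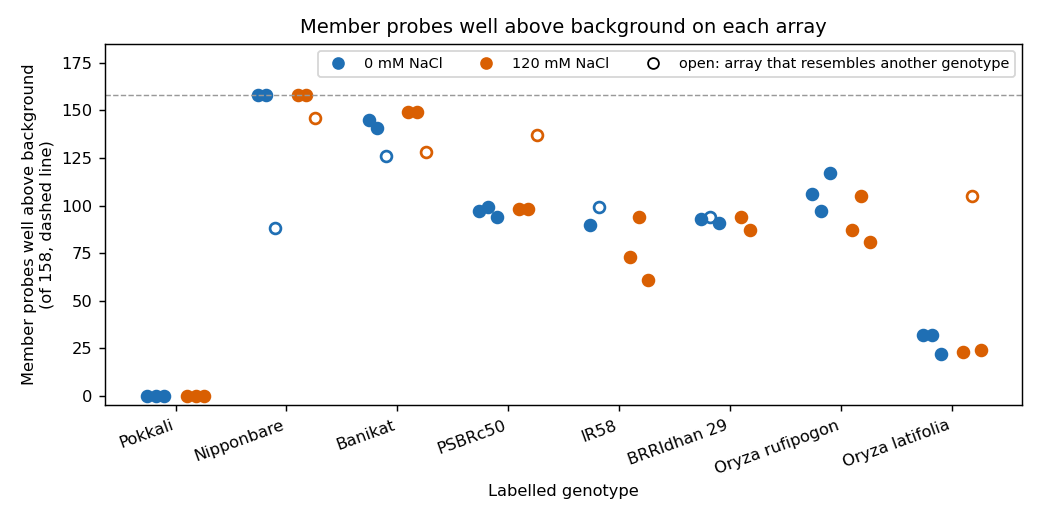
Number of the 158 member probes that were well above background on each of the 46 arrays (vertical axis), by labelled genotype and treatment. The 4 Nipponbare arrays of the rule hold 158 and the 6 Pokkali arrays 0 by selection, Banikat 126 to 149, and the open points are the 8 arrays that resemble another genotype.

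In the 6 genotypes that the rule did not use, most members were bright in Banikat, the second japonica genotype, fewer in the indica varieties and Oryza rufipogon, and few in Oryza latifolia. A probe was counted as bright in a genotype where it was bright on over 50% of its arrays, as dark where it was bright on at most 1 array, and as mixed otherwise. On the arrays kept after leaving out the 8, 145 of the 158 probes (91.8%) were bright in Banikat (146 as labelled). In the indica varieties 97 were bright in PSBRc50 (97 as labelled), 75 in IR58 (87) and 85 in BRRIdhan 29 (89). The kept IR58 arrays differed in their limit for a bright probe. At 120 mM replicates 3 and 1 the limits were 5.91 and 4.41, and 61 and 73 members were bright. At 0 mM replicate 1 and 120 mM replicate 2 they were 3.57 and 3.14, with 90 and 94 members bright. How far these limits set the IR58 counts and states was not tested. In Oryza rufipogon, where no array went against its label, 99 were bright and 34 dark. Of the 31318 other probes bright in Nipponbare, the shares bright without the 8 arrays were 93.5% to 99.1% in these 5 genotypes. In Oryza latifolia 24 members were bright (22 as labelled) against 66.0% of the other Nipponbare-bright probes.

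The Oryza latifolia arrays had a higher limit for a bright probe (6.33 to 7.62 on its 5 kept arrays, against 2.09 to 5.91 on the other 41 arrays). Of the 41 members with a Nipponbare mean above 8, 9 were bright and 32 dark there, while 76.3% of the other Nipponbare-bright probes above that level were bright. How far the higher limit sets these counts was not tested.

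The members fell into 5 patterns by genotype. Without the 8 arrays, 43 probes of 35 loci were bright in the 3 indica varieties, in Banikat and in Oryza rufipogon, so that Pokkali stood alone among the cultivated genotypes and Oryza rufipogon (52 probes with all arrays as labelled). Os07g0442900 was of this kind, with levels of 11.4 to 12.6 on the kept arrays of the 3 indica varieties, a mean of 11.1 in Banikat and 8.89 in Oryza rufipogon, where 1 of 6 arrays was dark at 1.21. Os12g0183300, a bisphosphate nucleotidase that removes a phosphate from a by-product of sulfate assimilation, was another, with both probes at 10.2 and 10.3 in Nipponbare, 9.21 to 11.1 in the indica varieties and 1.72 and 1.74 in Pokkali. The ubiquitin carboxyl-terminal hydrolase Os11g0545300 and Os06g0164000 and Os06g0198000 completed the 5 brightest members that were bright in all of these genotypes as labelled. Dark Oryza rufipogon arrays occurred here too. Os06g0164000 read 1.64 at 0 mM replicate 2 and 1.63 at 120 mM replicate 1. Os06g0198000 read 1.34 and 2.32 at 0 mM replicates 2 and 3. A further 8 probes were bright in the 3 indica varieties but dark or mixed in Banikat or Oryza rufipogon.

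At the other end, 35 probes (22.2%) were dark in all 3 indica varieties, against 0.322% of the other Nipponbare-bright probes, and 30 of them were bright in Banikat (26 as labelled). They included Os11g0696600 and Os03g0723600, both hypothetical proteins, the class III chitinase Os11g0700900 with 3 probes, the resistance protein Os11g0222900 and the 14-3-3 protein Os11g0609600 (14-3-3 proteins bind phosphorylated partners). In the largest class, 72 probes of 63 loci, the indica varieties differed. Of these, 4 were bright in none of the 3 but mixed in 1. Among the rest, 13 probes were dark only in BRRIdhan 29, 11 only in IR58 and 5 only in PSBRc50, and 10, 5 and 11 were bright only in PSBRc50, IR58 and BRRIdhan 29, respectively, the others being mixed in at least 1 variety. Os11g0550800 was of this class: it read 12.1 to 14.2 on the 4 kept BRRIdhan 29 arrays and 1.20 to 2.00 on the 9 kept PSBRc50 and IR58 arrays. Only 3 probes were bright in no genotype other than Nipponbare, and 3 were bright in all 6 others.

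**Figure D2:**
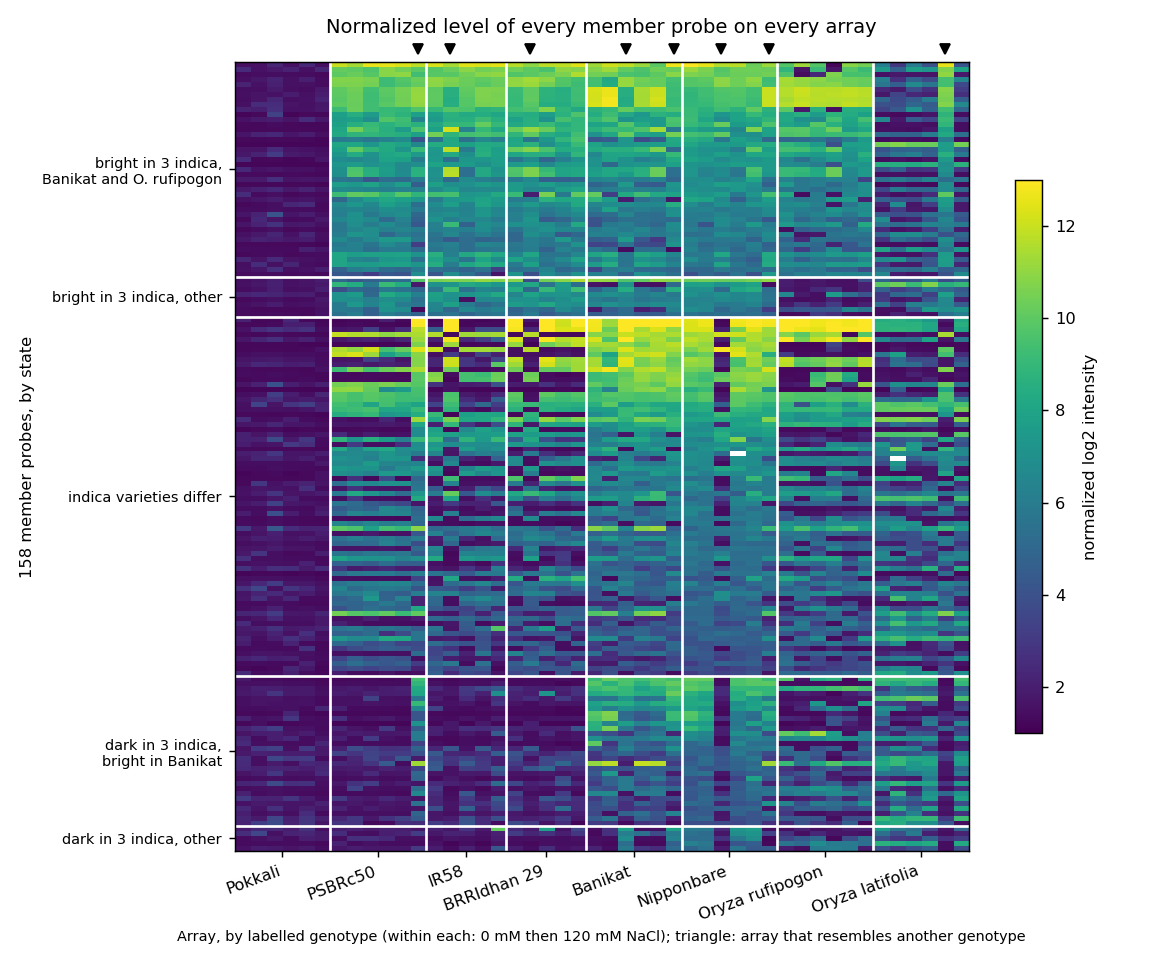
Normalized log2 intensity (color) of the 158 member probes (rows, in the 5 state classes, brightest in Nipponbare first within a class) on the 46 arrays (columns, by labelled genotype). White cells are 2 values left out for outlier spots, and triangles mark the 8 arrays that resemble another genotype; the class at the top (43 probes) is dark in Pokkali and mostly in Oryza latifolia, and the class of 30 probes is bright in Banikat and dark in the indica varieties.

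The first test asked whether members were higher in Banikat than in the mean of the 3 indica varieties, on arrays the rule did not use (limma on group means, Benjamini-Hochberg adjustment over all 42477 probes, threshold 0.05). Since each array held 1 seedling, the p-values measure the spread between these seedlings and arrays. As labelled, 38 of the 158 probes (32 loci) were called higher, against 3.48% of all probes, and 1 probe was called lower, against 1.34% of all probes. The median difference of the members was 0.94 on the log2 scale, and that of all probes -0.11. Without the 8 arrays, 62 members (39.2%) were higher against 9.26% of all probes, and 12 (7.59%) were lower against 9.68% of all probes. Banikat and the indica varieties shared no slide and no scan day, so that these cannot be told apart from the genotypes. With the scan day as a random block 32 members were higher. The Banikat arrays, unlike those of the indica varieties, shared slides with the Nipponbare arrays that chose the members. The part of these slides in the calls was not tested. Leaving out replicate 1 lowered the count of higher members to 5 (0.152% of all probes) and leaving out replicate 2 to 23 (0.483%), while without replicate 3 it was 46 (6.67%). Where one side of a comparison was dark, the fitted difference was taken against background readings, so that it gives neither a size nor an order.

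The 5 loci with the largest fitted rise were dark on most or all indica arrays, so that their order has no meaning. Banikat and indica levels and fold bounds below are from the kept arrays. The adjusted p-values are from the fit with all arrays as labelled unless stated, so that they do not test these levels alone. The second probe of Os03g0723600, its only member probe, read 9.64 on average on the 4 kept Banikat arrays and 1.26 to 1.49 on the 13 kept indica arrays. It was at least 60.7-fold higher in Banikat, with an adjusted p of 0.00058 as labelled. Os11g0696600 read 9.16 in Banikat and 1.21 to 1.89 in the indica varieties, at least 43.7-fold higher (adjusted p = 8.3e-06). Os11g0550800 was called for both probes (adjusted p = 0.025 and 0.028), although BRRIdhan 29 was as bright as Banikat. The second probe of Os08g0263300, a conserved hypothetical protein, read 8.76 in Banikat and 1.72 to 4.41 in the indica varieties, where 1 of 13 kept arrays was bright (adjusted p = 1.9e-06). The first probe of this locus was no member, since it was bright on all 6 Pokkali arrays (mean 5.48, against 9.68 in Nipponbare). Levels of the first probes of Os08g0263300 and Os03g0723600 in the indica varieties are not given here. The resistance protein Os11g0222900 read 8.06 in Banikat and 1.33 to 2.88 in the indica varieties, at least 20.3-fold higher (adjusted p = 0.00041). The one member called lower was Os03g0282300, which carries no annotation here and was dark on all 4 kept Banikat arrays (mean 1.54) but at 5.25 to 9.09 on the kept indica arrays (adjusted p = 0.0083 as labelled and 2.6e-08 without the 8 arrays).

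In Oryza rufipogon the members went both ways. As labelled, 17 probes were higher than in the 3 indica varieties (1.64% of all probes) and 17 lower (1.96% of all probes), each 10.8% of the members. With the 8 arrays left out these were 37 higher (4.23% of all probes) and 32 lower (4.52% of all probes). The medians of members and of all probes were 0.14 and 0.02, and that of the members was -0.21 without replicate 1. Leaving out replicate 1 lowered the counts to 5 higher (0.238% of all probes) and 8 lower (0.357%), and leaving out replicate 2 lowered that of lower members to 11 (1.16%).

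Among the higher ones, the second probe of Os08g0263300 (adjusted p = 1.4e-07) was bright on all 6 Oryza rufipogon arrays at 8.33 to 9.84. This and the following adjusted p-values are from the fit with all arrays as labelled, whereas states and levels in the other genotypes are from the kept arrays. The protein kinase Os11g0691600 (adjusted p = 2.9e-05), the receptor protein kinase Os09g0345300 (adjusted p = 8.4e-05) and the resistance protein Os08g0260800 (adjusted p = 0.00039) were dark in all 3 indica varieties, and Os08g0260800 was also dark in Banikat at a mean of 1.34. Os03g0855100, with the DNA-binding WRKY domain of a family of plant transcription factors, was also higher (adjusted p = 0.00013), although PSBRc50 was bright at 5.91 to 6.57. The kinases, Os08g0260800, Os03g0855100 and Os08g0198700 were chosen after their values were seen. The lower ones included Os08g0198700, annotated as glycolate oxidase, an enzyme of photorespiration. It read 10.2 to 10.5 on the 4 Nipponbare arrays and 1.52 to 3.82 in Oryza rufipogon (adjusted p = 1.4e-06). Among the kept indica arrays it was 10.4 to 11.5 in IR58 and BRRIdhan 29 but 4.14 to 5.18 in PSBRc50. Os03g0282300 (adjusted p = 0.00029), Os10g0132300 (adjusted p = 0.0061) and the resistance protein Os10g0132500 (adjusted p = 0.015) were dark on all 6 Oryza rufipogon arrays.

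**Figure D3:**
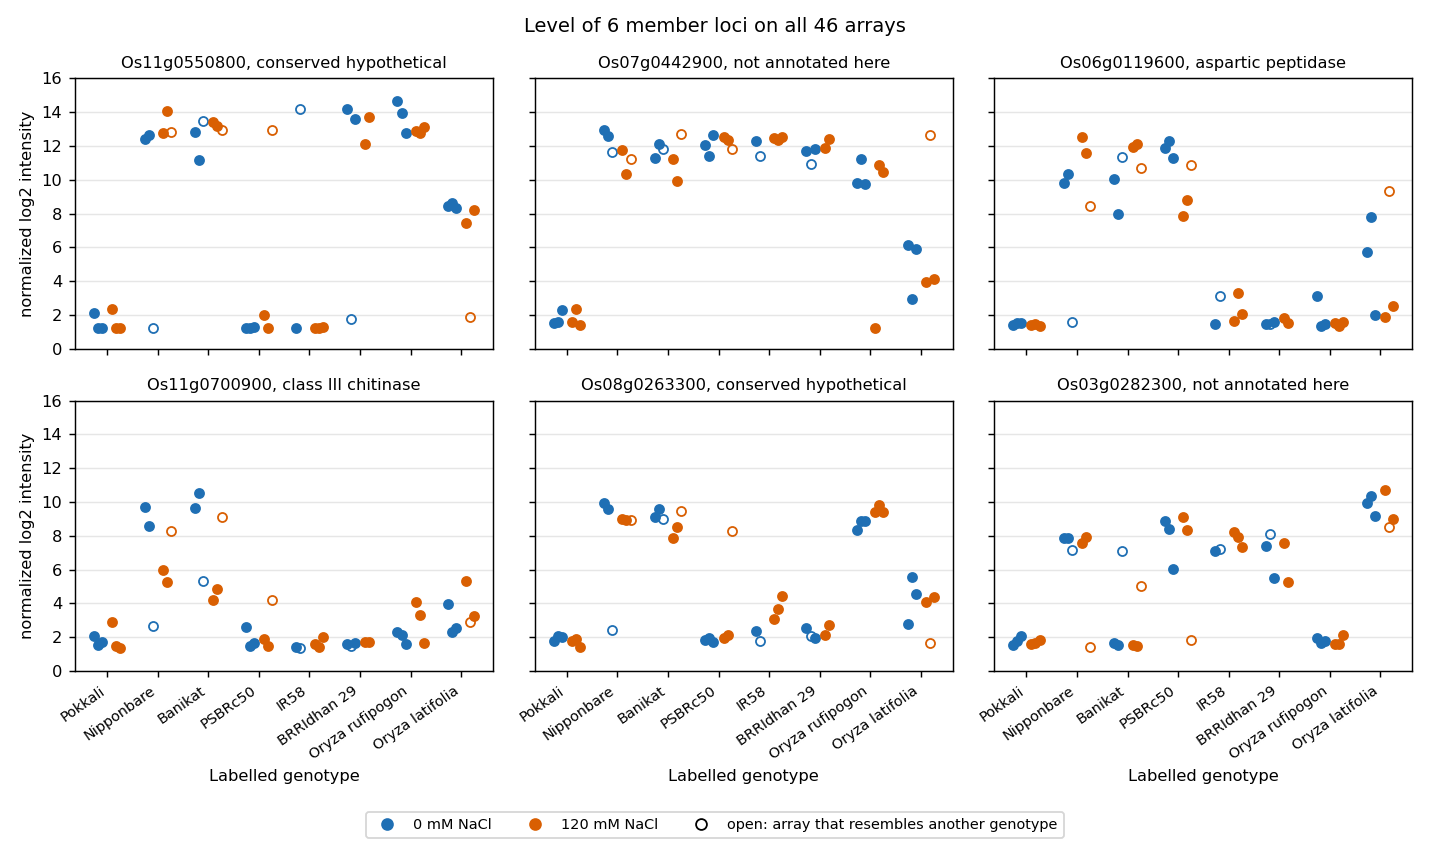
Normalized log2 intensity of 6 member loci (1 probe each) on all 46 arrays, by labelled genotype and treatment, with open points for the arrays that resemble another genotype. Os07g0442900 is low in Pokkali and Oryza latifolia alone on the filled points apart from 1 Oryza rufipogon array at 1.21, Os08g0263300 is high in Nipponbare, Banikat and Oryza rufipogon, and Os11g0700900 is lower at 120 mM than at 0 mM on the filled points of Nipponbare and Banikat.

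Salt was examined next, since a member could differ in its response as well as in its level. Nipponbare itself was described over its 2 pairs of arrays, 120 minus 0 mM within a slide. Of the 157 member probes with values in both pairs, 9 (5.73%) were higher by over 1 log2 unit in both and 9 (5.73%) lower by over 1, against 4.48% and 5.21% of the other Nipponbare-bright probes, so that these shares were near the background. The sign was the same in both pairs for 53.5% of the members and 65.1% of the others. The median differences were -0.11 and 0.18 for the members and 0.00 and 0.05 for all probes. The loci higher in both pairs included the aspartic peptidase Os06g0119600, the protein kinase Os10g0351500, the cytochrome P450 Os07g0451300 and the non-coding transcript Os12g0266000. Those lower in both included Os07g0442900, the stress transcription factor gene Os11g0184900 (OsNAC5), the resistance protein Os08g0260800 and the chitinase Os11g0700900. For OsNAC5 this rests on its 1 member probe of 4. Its other probes were brighter in Nipponbare, at 11.2 to 12.4, and their salt change is not given here.

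In Banikat as labelled, limma called 0 of the 158 members for salt, as it called 0% of all probes higher and 0% lower. At an unadjusted p under 0.05, 2 members were higher and 2 lower. Without Banikat replicate 3, whose 2 arrays resemble Nipponbare, and the other 6 arrays, 4 members (2.53%) were higher against 2.99% of all probes and 3 (1.90%) lower against 2.54% of all probes, so that the members' share was close to the background. Over the 6 genotypes together no member was called, against 1.58% of all probes higher and 0.951% lower, with 5 members higher and 4 lower at an unadjusted p under 0.05 and a lowest adjusted p of 0.061, that of Os01g0289900 (-1.21). This one was called lower with the replicate number, the slide or the scan day as a block (adjusted p = 0.042, 0.045 and 0.033). Without the 8 arrays 1 member, Os12g0172400, was higher (adjusted p = 0.022), against 2.82% of all probes higher and 1.77% lower. Its largest step, from 2.41 to 7.38 in Oryza latifolia, lay between levels that were dark on all 5 kept arrays.

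The 3 members that fell in Banikat were the 3 member probes of Os11g0700900, a class III chitinase homologue, an enzyme family that cleaves fungal cell wall chitin and is known for its part in defense. Its first probe read 9.64 and 10.5 at 0 mM and 4.20 and 4.85 at 120 mM on the 4 kept Banikat arrays, without overlap, a difference of -5.57 ± 0.72 (SE, adjusted p = 0.00024), and the other member probes fell by 5.47 and 4.82. In Nipponbare the same probe read 9.69 and 8.56 at 0 mM and 5.95 and 5.25 at 120 mM. On the Banikat replicate 3 arrays it ran the other way, 5.30 at 0 mM and 9.11 at 120 mM, and with these included the difference was -2.44 (adjusted p = 0.76). It stayed at 1.37 to 2.91 in Pokkali and at 1.40 to 2.62 on the kept indica arrays.

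On the kept arrays, the aspartic peptidase Os06g0119600 moved in opposite directions among genotypes where it was bright. Its first probe was higher at 120 mM by 1.92 and 4.64 in the kept Banikat pairs, a fitted rise of 3.28 ± 0.92 (adjusted p = 0.043), and by 2.92 and 1.46 in Nipponbare, while the differences in PSBRc50 replicates 1 and 2 were -4.12 and -3.54. The difference in salt effect between the 6 genotypes had an adjusted p of 0.021 without the 8 arrays and 0.82 as labelled. For its second probe these were 0.063 and 0.97. As labelled, no member was called for such a difference, against 0.162% of all probes. Without the 8 arrays 13 members of 11 loci were called (8.23%), against 7.85% of all probes, a share near the background. The others called higher in Banikat without the 8 arrays were the cytochrome P450 Os07g0451300 (2.58 ± 0.65, dark on both kept arrays at 0 mM), the F-box protein Os11g0572800 (1.52 ± 0.40) and Os01g0222500, subunit E of the vacuolar proton pump that energizes sodium storage in the vacuole (1.37 ± 0.33). These loci were chosen after their values were seen.

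Where a locus carried several probes, they did not always agree. Of the 137 loci, 103 had 1 probe and 34 had several, and in 8 of these all probes were members. Os10g0180800, with an EGF-like calcium-binding domain, had 5 of 5 member probes with Nipponbare means of 6.12 to 8.26 and Pokkali means of 1.28 to 1.95. At the 26 other loci, 36 probes were not members. Of these 36, 11 were bright on the 4 Nipponbare and all 6 Pokkali arrays, 12 were bright on the 4 Nipponbare and 1 or 2 Pokkali arrays, and 7 were dark in Pokkali without being bright on all 4 Nipponbare arrays. For the proteasome subunit Os11g0615700 the other probes followed the member, at 13.6 and 12.8 in Nipponbare and 1.80 and 2.45 in Pokkali. For OsNAC5 (Os11g0184900) they did not: the member probe read 6.84 in Nipponbare and 1.65 in Pokkali, but the other 3 probes read 11.2 to 12.4 in Nipponbare and 11.5 to 12.5 in Pokkali.

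Both kinds were present at the 2 member loci with 6 probes. The ubiquitin carboxyl-terminal hydrolase Os11g0545300, which removes ubiquitin from proteins, had 4 member probes at 9.18 to 9.36 in Nipponbare and 1.58 to 1.93 in Pokkali, whereas probe 2, placed in an untranslated region, ran the other way at 1.27 in Nipponbare and 7.58 in Pokkali. The chitinase Os11g0700900 had 3 member probes, 2 further probes bright on 1 Pokkali array, and probe 5, bright on all 6 Pokkali arrays, at 9.09 in Nipponbare and 5.62 in Pokkali. At 9 loci another probe was bright on all 10 arrays, including Os03g0723600, whose first probe read 9.44 in Nipponbare and 8.76 in Pokkali.

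**Figure D4:**
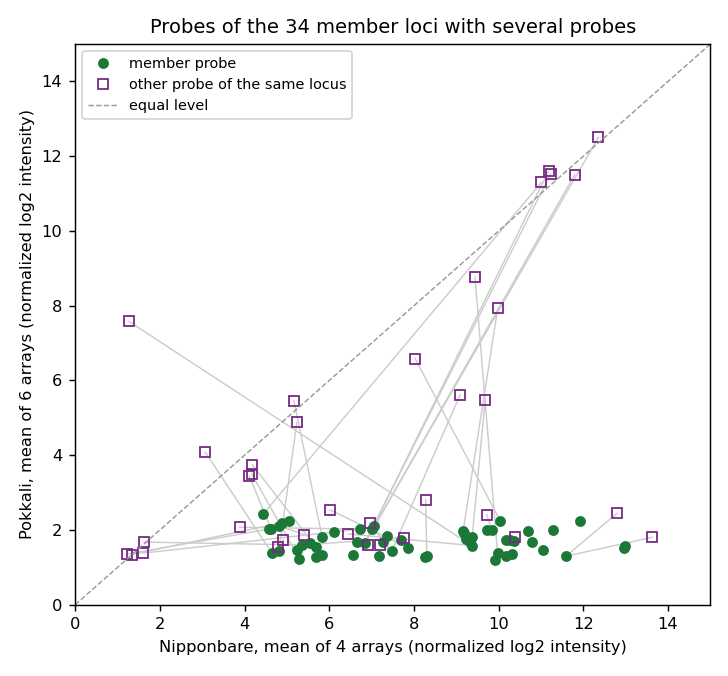
Mean normalized log2 intensity in Nipponbare (4 arrays, horizontal) and in Pokkali (6 arrays, vertical) of all 91 probes at the 34 member loci with several probes, with lines from the brightest member probe of a locus to its other probes. Open squares near the dashed line of equal level are probes of member loci that were about as bright in Pokkali as in Nipponbare, and the square at 1.27 and 7.58 is the reversed probe of Os11g0545300.

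By chromosome in the locus name, member loci were most frequent on chromosomes 11 and 12, which held 38 of the 137 loci (27.7%) and 3564 of the 29689 array loci. On chromosome 12, 22 of 1740 array loci (1.26%) were members, on chromosome 11 16 of 1824 (0.877%) and on chromosome 2 6 of 3354 (0.179%), the lowest share. Of the 240 loci with the opposite pattern, 54 lay on chromosomes 11 and 12.

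**Figure D5:**
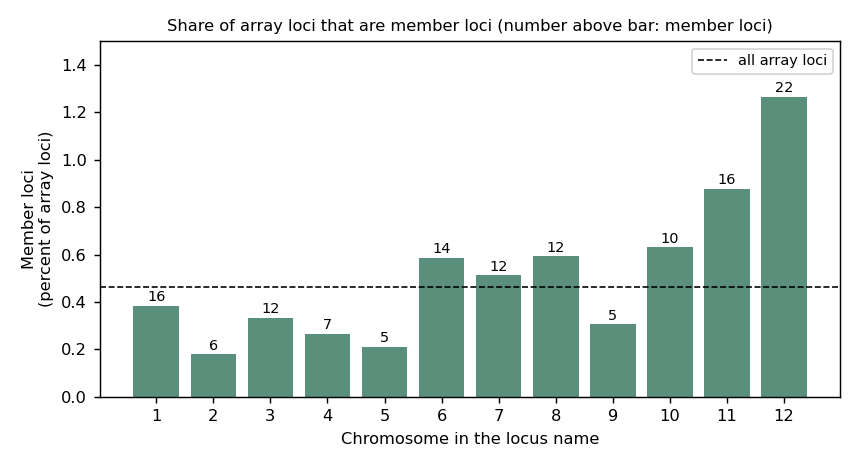
Member loci as a percentage of the loci on the array (bars) for each chromosome in the locus name, with the number of member loci above each bar and the share over all array loci (0.461%) as a dashed line. The shares run from 0.179% on chromosome 2 to 1.26% on chromosome 12.

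In order of locus number, 10 member loci formed 5 adjacent pairs, and 28 lay in 14 pairs whose numbers differed by at most 1000. Both loci had the same state class in 4 of the 5 adjacent pairs and in 9 of the 14 pairs, which include the adjacent ones. The class in which the indica varieties differ alone held 72 of the 158 probes. Agreement between other pairs of members was not counted. Os10g0132300 and the neighbouring resistance protein Os10g0132500 were both bright on all kept arrays of PSBRc50, IR58 and Banikat and dark in BRRIdhan 29 and Oryza rufipogon, at Nipponbare means of 11.2 and 6.82. Os03g0842300 and Os03g0842400 (7.97 and 7.07) were bright in the 3 indica varieties and Banikat, between neighbours that were bright in both Nipponbare and Pokkali (Os03g0841900 at 9.45 and 9.16, Os03g0842700 at 9.89 and 8.08). Os08g0150600 and the F-box gene Os08g0150700 (5.54 and 9.03) were bright in PSBRc50 and BRRIdhan 29 and dark in IR58. The protein kinase gene Os08g0203700 and the F-box gene Os08g0203800 (5.30 and 7.48) differed in class, since the former was bright on 2 of the 4 kept IR58 arrays and the latter on all 4. On IR58 120 mM replicates 1 and 3 Os08g0203700 read 4.34 and 5.87, just under the limits of 4.41 and 5.91 for a bright probe. It read 5.64 and 5.97 on the other kept IR58 arrays. The fifth pair, the AAA ATPase gene Os12g0431100 and Os12g0431300 (5.67 and 5.79), was bright in the 3 indica varieties, Banikat and Oryza rufipogon.

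The loci around members were mostly bright in Pokkali. Of the 1218 array loci within 5 places of a member locus, 773 had a probe bright on the 4 Nipponbare arrays, and at 88.4% of these the brightest such probe was bright on all 6 Pokkali arrays, against 94.0% of 20657 such loci elsewhere. A level over 2 log2 units higher in Nipponbare than in Pokkali was found at 7.76% of these neighbours and at 2.20% elsewhere. Since these are the arrays of the rule, the values are a description.

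Annotations were found for 97 of the 137 loci, in the study's lists of trait-associated probes, which hold 5018 array loci and were drawn from these samples. Of the 97, 33 were hypothetical or conserved hypothetical proteins (34.02%, against 28.1% of the 5018) and 6 had no hit. Disease resistance proteins made up 8 (8.25%, against 1.16%), F-box proteins, which select targets for ubiquitin tagging, 6 (6.19%, against 1.12%) and protein kinases 5 (5.15%, against 3.25%). Transposon, peroxidase and ribosomal annotations were found at 0 member loci, against 0.737%, 0.558% and 0.996%. The 8 resistance loci differed among themselves: 3 were dark in all 3 indica varieties, 4 differed between these, and Os05g0240200 was bright in all 3. By the evidence behind the gene model in the probe name, 71.5% of the member probes stood on full-length cDNA, 20.3% on expressed sequence tags and 8.23% on prediction, against 82.0%, 13.7% and 4.20% of the other probes bright in Nipponbare.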

How the data were processed

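Whole-seedling RNA of 8 rice genotypes at 0 and 120 mM NaCl was measured on 46 one-color Agilent rice arrays. Per the file headers, the authors read the scans with Agilent Feature Extraction 10.7.3.1, and the deposited intensity used here is its processed signal, background-subtracted but not normalized between arrays. The deposited table of log2 values, quantile-normalized by the authors and centered on each probe, served as an alternative.

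For the values reported, the log2 processed signal was quantile-normalized over non-control spots, outlier spots were left out and spots of a probe averaged. A probe was bright on an array where over 50% of its spots carried the flag for well above background. Comparisons of group means used limma 3.58.1 in R 4.3.3 (with the package data.table, version 1.17.8) with Benjamini-Hochberg adjustment over all probes, on the 34 arrays of the 6 genotypes that the rule did not use. Counts and figures were made in Python 3.11.15 (numpy 2.4.6, pandas 2.3.3, matplotlib 3.10.9). The fitting code was tested on simulated data. The number of arrays limits the precision. Same-numbered arrays of a genotype mostly shared a slide and a scan day. Over all groups, same-numbered arrays did not deviate together on average. These pairs were mostly of different genotypes, so that pairing within a genotype was not tested. The reported fits carry no replicate block, and the block was an alternative.

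Named loci were the 8 brightest in Nipponbare, the 5 with the largest rise in Banikat over the indica varieties and any called lower there, the 5 brightest among those bright in the 3 indica varieties, Banikat and Oryza rufipogon, the 3 with most probes, 4 of the 5 runs of adjacent loci (all of 2 loci, those with the higher mean level), and the 3 loci nearest the threshold on each side. The others were chosen after their values were seen. The members and lists were chosen with earlier results of these data known.

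Annotations came from the study's supplementary lists of probes associated with traits in these samples. These lists were held in part, so that no set test was run. Their columns of the authors' own comparisons were not used. Alternatives covered the scaling, the background correction, the authors' values, a filter on dim probes, slide, scan day and replicate blocks, all 8 genotypes in the fit, and leaving out replicates or the 8 arrays that resemble another genotype.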

Additional observations from a re-analysis of the deposited data

Results flagged for a closer look

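For 13 member probes of 11 loci the effect of salt differed between the 6 genotypes once the 8 arrays that resemble another genotype were left out (limma, test of the interaction, adjusted over all probes), against 7.85% of all probes. The members' share of 8.23% was thus near the background. With all arrays as labelled none of them was called, at adjusted p-values of 0.147 to 0.999. Levels below are means on the kept arrays at 0 and 120 mM, and levels at which no kept array was bright are called dark and have no order. The chitinase Os11g0700900 had adjusted p-values of 0.00119, 0.0378 and 0.00506 for its 3 member probes, and its first probe was at 10.1 and 4.52 in Banikat. Os04g0428500 (adjusted p = 0.00248) was dark in Oryza latifolia at both doses, at 6.39 and 1.30, so that its largest step lay between dark levels. The second probe of Os01g0206600 (adjusted p = 0.0049) was dark at 2.01 and bright on all 3 arrays at 6.30 in Oryza rufipogon. The first probe of this locus was no member, at means of 11.2 in Nipponbare and 11.6 in Pokkali. The cytochrome P450 Os07g0451300 (adjusted p = 0.00875) was dark at 2.00 and bright at 4.58 in Banikat, and dark at both doses in Oryza latifolia (5.11 and 2.13). The V-ATPase subunit Os01g0222500 (adjusted p = 0.0146) was at 9.31 and 8.16 in PSBRc50 and at 7.70 and 9.07 in Banikat. The aspartic peptidase Os06g0119600 (adjusted p = 0.0214) was at 10.7 and 7.18 in PSBRc50 and at 7.57 and 10.8 in Banikat. Os12g0172400 (adjusted p = 0.0248) was dark at both doses in Oryza latifolia, at 2.41 and 7.38, so that its largest step lay between dark levels. Os05g0206200 (adjusted p = 0.0271) was at 1.63 (dark) and 5.87 in IR58, where 1 array at 0 mM was kept. Os07g0541500 (adjusted p = 0.0271) was bright on all 3 arrays at 5.34 and dark at 1.73 in Oryza rufipogon. The F-box gene Os08g0203800 (adjusted p = 0.0486) was at 6.22 and 7.52 in Oryza rufipogon and at 7.51 and 6.41 in Banikat. Os10g0132300 (adjusted p = 0.0492) was at 11.6 and 9.81 in PSBRc50.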

How the results depend on the processing

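The number of members depended on the flag and on the arrays required: 74 probes met the rule with the scanner's flag for a positive and significant signal, 284 when 1 bright Pokkali array was allowed, and 84 when all 6 Nipponbare arrays had to be bright. Without the 8 arrays that resemble another genotype, the counts against the 3 indica varieties rose from 38 to 62 higher and from 1 to 12 lower in Banikat, and from 17 to 37 higher and from 17 to 32 lower in Oryza rufipogon. Those for salt rose from 0 to 7 in Banikat, from 0 to 1 over the 6 genotypes, and from 0 to 13 for a salt effect that differs between genotypes. The last of these was added after seeing the data. Leaving out 1 replicate number gave 5 to 46 higher and 0 to 9 lower members in Banikat, 5 to 22 higher and 8 to 12 lower in Oryza rufipogon, 0 to 3 for salt in Banikat and 0 to 2 for salt over 6 genotypes. The lowest counts of higher members came without replicate 1, and the highest counts for salt without replicate 3, which holds 3 of the 6 arrays of these genotypes that resemble another, both of Banikat among them. The cause of these moves was not tested. With all 8 genotypes in the fit 2 members were lower in Banikat and 1 changed with salt over 6 genotypes, as 1 did with the slide as a random block or the scan day as a fixed block (Os01g0289900, lower, each time). Over all groups, samples with the same replicate number did not deviate together on average (mean correlation 0.038, from -0.643 to 0.562, against -0.02 for other pairs). These pairs were mostly of different genotypes, so that they do not test the pairing within a genotype, where most share a slide. With the replicate number as a block, the counts were 37 higher and 1 lower in Banikat, 19 and 17 in Oryza rufipogon, 0 for salt in Banikat and 1 for salt over 6 genotypes. The scan day could not be fitted as a fixed block for the genotype comparisons and entered as a random block, chosen after seeing the data (32 higher in Banikat). Of 20 differences of named loci in Banikat or Oryza rufipogon from the 3 indica varieties, none turned its direction. Salt effects of named loci were not among these. The balance of calls in Oryza rufipogon did turn, with 5 higher and 8 lower without replicate 1 but 22 higher and 11 lower without replicate 2. Salt calls over the 6 genotypes were 1 lower with the replicate block but 2 higher without replicate 3. In addition, 2 medians near 0 turned: that of the members in Oryza rufipogon against the indica varieties went from 0.14 to -0.21 without replicate 1, and that for salt over the 6 genotypes from 0.08 to -0.03 without the 8 arrays and -0.06 without replicate 3. Of 240 values of single named loci under the alternatives, 40 lost significance, 17 of them without replicate 1. Signals below the lowest bright probe of an array (2.09 to 7.62 on the log2 scale) have no order, which limits all levels called dark.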
